A study of Zea mays subsp. mays with 2 samples.

Results

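The loci described here were those with abundant RNA in maize shoots and little in roots. They were chosen from the deposited levels by a rule: at least 100 FPKM in shoots, above 0 in roots, and at least 16 times as high in shoots as in roots, with no pseudocount. FPKM is the number of sequenced fragments divided by transcript length in kilobases and by the number mapped in the whole library, so it compares loci per length. Of 37398 listed loci, 343 (0.917%) met the rule. Because the rule used both levels, the levels and ratios of these loci are a description and carry no test.

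The series compared the shoots and the roots of seedlings of the inbred line B73, from which the maize reference genome was made. Both tissues were collected separately, 14 days after germination, from plants with no treatment or introduced allele named in the labels. Polyadenylated RNA of each tissue was made into 1 strand-specific library, and noncoding RNA was the stated interest of the series. With 1 library per tissue there was no replicate, so no difference given here has a replicate check and none was tested.

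A shoot is the photosynthetic organ of a seedling. In its green cells, nuclear genes for light-harvesting proteins, for the small subunit of the carbon-fixing enzyme Rubisco and for other chloroplast proteins are known for very abundant transcripts, while roots hold few of them. Maize leaves divide carbon fixation between mesophyll and bundle sheath cells, each with enzymes of its own. Plant families of light-harvesting proteins are also known for gene copies that lie side by side. The table gives positions and no gene names, so none of the loci below can be tied to any of these proteins. For the same reason the labelled tissues could not be checked against marker genes.

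The abundant shoot-biased loci were few but held a large part of the shoot total. Together they summed to 267592 FPKM in shoots against 1758 FPKM in roots, which was 21.4% of the shoot sum over all listed loci and 0.148% of the root sum. Their shoot level ranged from 100.6 to 14761 FPKM with a median of 282 FPKM, and their root level from 0.0300 to 38.3 FPKM with a median of 2.85 FPKM. The median over all listed loci was 8.91 FPKM in shoots against 8.20 FPKM in roots. These are whole organs, in which fewer cells of a type and less RNA per cell cannot be told apart.

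The loci met the ratio criterion by very different margins. The median ratio of shoots over roots was 144, with quartiles of 38.3 and 631 and a highest value of 5753. There were 63 loci between 16-fold and 32-fold, 86 between 32-fold and 100-fold, 93 between 100-fold and 500-fold, 48 between 500-fold and 1000-fold, and 53 above that. Median root FPKM went from 8.59 in the lowest of these classes to 0.540 in the highest, and median shoot FPKM from 189 to 939. Both levels make up the ratio that defines the classes, so these medians are a description.

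**Figure D1:**
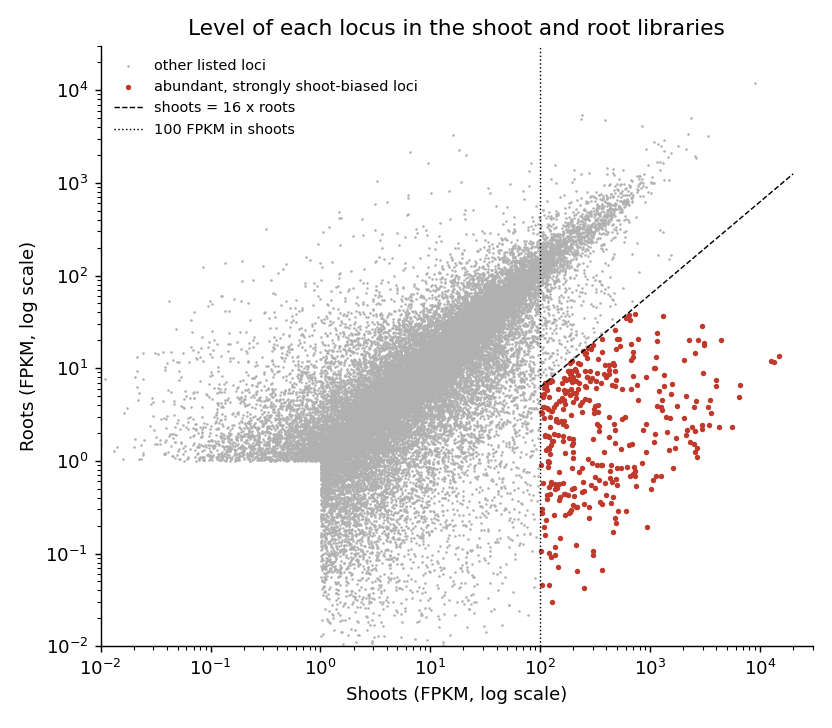
Level of each listed locus in shoots (x axis) and roots (y axis), in FPKM on log scales. The 343 chosen loci (red) lie right of the dotted line at 100 FPKM in shoots and under the dashed line where shoots are 16 times roots, and the 888 loci under 0.01 FPKM in either library are not drawn.

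The upper end of the shoot transcriptome consisted largely of these loci. They made up 9 of the 10 most abundant shoot loci, 42 of the top 50, 66 of the top 100 and 150 of the top 500. Of the 2021 loci at 100 FPKM or more in shoots and above 0 in roots, 17.0% passed the ratio criterion. The share was 11.7% of the 1113 loci from 100 to 200 FPKM, 16.3% of 661 from 200 to 500 FPKM and 26.2% of 149 from 500 to 1000 FPKM. It was 62.0% of 79 loci from 1000 to 3000 FPKM, and 17 of the 19 loci above that passed. Both criteria of the rule enter these shares, so nothing further is read from them.

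The root levels of the chosen loci in these classes are given as a description, since the rule bounds them. The median root level was 1.88 FPKM for loci at 100 to 200 FPKM in shoots, 3.50 FPKM at 200 to 500 FPKM, 2.49 FPKM at 500 to 1000 FPKM and 2.98 FPKM at 1000 to 3000 FPKM. Above 3000 FPKM in shoots it was 6.64 FPKM, with all 17 loci between 2.32 and 20.2 FPKM in roots.

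The 10 most abundant of them held 28.3% of their summed shoot level, and the 66 loci at 1000 FPKM or more held 69.8%. The highest 3 lie on chromosomes 7 and 1, with shoot levels of 12525 to 14761 FPKM and root levels of 11.8 to 13.4 FPKM. The fourth, on the plus strand of chromosome 6 between 164900927 and 164902252, stood at 6547 FPKM in shoots against 6.64 FPKM in roots. The fifth, on the plus strand of chromosome 8 between 141641842 and 141643727, stood at 6409 FPKM in shoots and 4.87 in roots. These 5 had similar ratios, from 986 to 1316, although their shoot levels differed.

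The other 5 of the top 10 were more varied in ratio. The minus-strand locus of chromosome 8 between 70796779 and 70798941 reached 5603 FPKM in shoots against 2.32 FPKM in roots, a ratio of 2416. By contrast, the plus-strand locus of chromosome 2 between 142794871 and 142796060 reached 4410 FPKM in shoots and 20.2 in roots, a ratio of 218, the lowest of the 10. The remaining 3 lay between these ratios. The minus-strand locus of chromosome 2 between 42257261 and 42259297 reached 4195 FPKM in shoots and 2.33 in roots. The plus-strand locus of chromosome 7 between 157568903 and 157570895 reached 4009 FPKM in shoots and 6.49 in roots. The plus-strand locus of chromosome 2 between 206948292 and 206955094 reached 4002 FPKM in shoots and 7.39 in roots. Its span of 6803 bp was the longest of the 10, where span is the distance from start to end with introns included, and the other 9 spanned 1166 to 2163 bp.

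The largest ratios belonged to loci of moderate shoot level that were near 0 in roots. The plus-strand locus of chromosome 8 between 153139096 and 153141108 reached 248 FPKM in shoots against 0.0430 FPKM in roots, a ratio of 5753. A 234 bp locus on the plus strand of chromosome 3 between 223531302 and 223531535 reached 366 FPKM in shoots and 0.0662 in roots, a ratio of 5533. The plus-strand locus of chromosome 3 between 184434264 and 184435351 reached 939 FPKM in shoots and 0.193 in roots, a ratio of 4872, with the highest shoot level of the 5. The next had the lowest root level of all 343 loci. On the minus strand of chromosome 7, the locus between 158126216 and 158127461 stood at 127 FPKM in shoots and 0.0300 in roots, a ratio of 4218. The fifth, on the plus strand of chromosome 5 between 66422982 and 66424645, stood at 214 FPKM in shoots and 0.0654 in roots, a ratio of 3277. None of these 5 reached 1000 FPKM in shoots, and at such root levels a small change in the root value moves the ratio greatly. The depth of the libraries is unknown, so no counting error can be given for them.

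Few loci combined a shoot level of 1000 FPKM or more with a root level under 1 FPKM. Of the 343 loci, 105 (30.6%) were under 1 FPKM in roots, 10 of them under 0.1 FPKM. Of the 105, 5 reached 1000 FPKM in shoots, against 66 of all 343. Both levels were used by the rule, so these counts are a description. The highest of the 5, on the minus strand of chromosome 6 between 1340171 and 1341142, stood at 1620 FPKM in shoots against 0.837 FPKM in roots. A further 117 loci lay from 1 to 5 FPKM in roots, 73 from 5 to 10 FPKM and 48 at 10 FPKM or more.

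The loci highest in roots had ratios in the lowest part of the range. The minus-strand locus of chromosome 5 between 190751995 and 190754841 reached 724 FPKM in shoots against 38.3 FPKM in roots. The minus-strand locus of chromosome 10 between 4243325 and 4244555 reached 643 FPKM in shoots and 37.8 in roots. The minus-strand locus of chromosome 8 between 138142847 and 138144617 reached 1300 FPKM in shoots and 36.6 in roots. Their ratios were 18.9, 17.0 and 35.5. All 3 root levels lay above the median of all listed loci.

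The thresholds cut through a continuous range of values. Just inside the ratio threshold were loci with ratios of 16.04, 16.1 and 16.3, and just outside it were loci with 15.9, 15.8 and 15.8. At the shoot threshold the 3 lowest chosen loci stood at 100.6, 100.6 and 100.8 FPKM, and the 3 highest that passed the ratio but missed this level stood at 99.8, 99.0 and 98.1 FPKM. Another 3 loci at 116 to 201 FPKM in shoots were listed at 0 in roots, which the rule leaves out.

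Abundant shoot-biased loci spanned less of the genome than other abundant loci. Their median span was 2044 bp, with quartiles of 1320 and 3632 bp. The 1678 other loci at 100 FPKM or more in shoots and above 0 in roots had a median of 3098 bp, and all listed loci one of 2443 bp. Spans over 1000 and up to 2000 bp made up 36.7% of the shoot-biased loci and 18.5% of the other abundant loci. Spans over 2000 and up to 5000 bp made up 36.4% and 51.1%. Of the 343 loci, 8 (2.33%) spanned 500 bp or less, 2 of them 200 bp or less. Spans of 500 bp or less made up 2.44% of the other abundant loci and 16.8% of all listed loci. No test of this difference was made, and span was not used by the rule.

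Span and level varied together among the shoot-biased loci. The median span was 2600 bp for those at 100 to 200 FPKM in shoots, 2174 bp at 200 to 500 FPKM, 1658 bp at 500 to 1000 FPKM and 1495 bp at 1000 to 3000 FPKM. The 17 loci above 3000 FPKM had a median of 1713 bp. Read the other way, loci over 1000 and up to 2000 bp had a median shoot level of 478 FPKM, those over 2000 and up to 5000 bp one of 248 FPKM and those over 5000 and up to 20000 bp one of 161 FPKM. Because FPKM is divided by transcript length, and the exon lengths used for it are not in the table, how much of this relation comes from length was not tested. In the same shoot classes, a division added after the values were seen, the other abundant loci had median spans of 3438 bp at 100 to 200 FPKM, 2736 bp at 200 to 500 FPKM, 2589 bp at 500 to 1000 FPKM and 2770 bp at 1000 to 3000 FPKM.

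Abundant root-biased loci also had short spans. The mirror rule, with at least 100 FPKM in roots, above 0 in shoots and a ratio of at least 16 in favour of roots, gave 85 loci (0.227% of the list, and 3.85% of the 2207 loci at that root level and above 0 in shoots). Their median span was 1493 bp, and 82 of the 85 lay over 500 and up to 5000 bp, against 284 of the 343 shoot-biased loci. Abundant loci within 2-fold in both organs, 1193 in number, had a median span of 3122 bp.

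**Figure D2:**
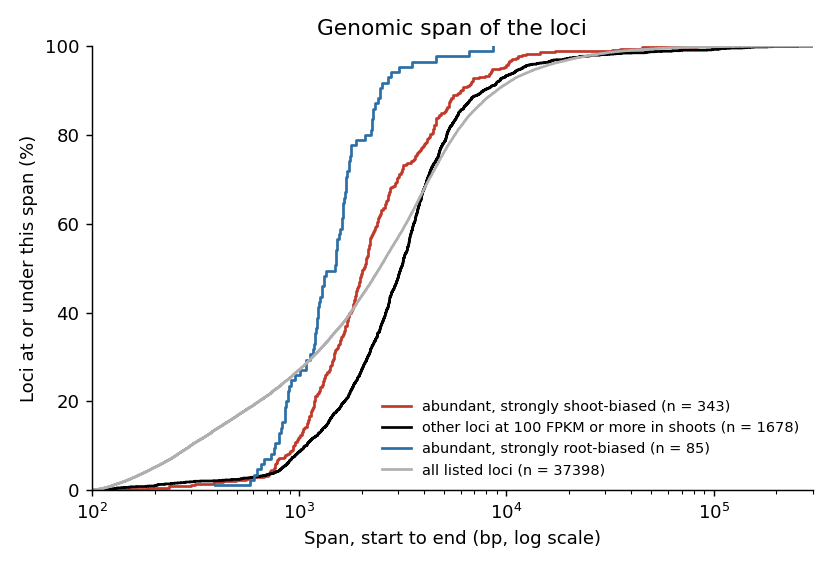
Cumulative share of loci (y axis, percent) by genomic span (x axis, bp on a log scale). The curve of the 343 abundant shoot-biased loci, with a median of 2044 bp, lies between that of the 85 abundant root-biased loci, with 1493 bp, and that of the 1678 other abundant shoot loci, with 3098 bp.

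The longest and shortest loci show how far span can depart from the norm. A plus-strand locus on chromosome 1 between 295106763 and 295189976 spanned 83214 bp and stood at 199 FPKM in shoots against 5.41 FPKM in roots. Another on the plus strand of chromosome 1, between 290394996 and 290439995, spanned 45000 bp and stood at 115 FPKM in shoots and 0.388 in roots. The third, on the plus strand of chromosome 3 between 76083608 and 76118803, spanned 35196 bp and stood at 139 FPKM in shoots and 2.85 in roots. The shortest, on the minus strand of chromosome 4 between 147393756 and 147393884, spanned 129 bp and stood at 192 FPKM in shoots and 0.494 in roots. A 185 bp locus on the plus strand of chromosome 3 between 1406857 and 1407041 reached 2581 FPKM in shoots and 14.7 in roots. The FPKM of loci this short depends strongly on the fragment length assumed.

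Both strands and every chromosome carried abundant shoot-biased loci. Of the loci, 178 were plus-strand and 165 minus-strand loci, so 51.9% were on the plus strand, against 49.6% of the other abundant loci and 50.5% of all listed loci. Median levels were 280 FPKM in shoots against 2.96 FPKM in roots on the plus strand, and 292 FPKM in shoots and 2.51 in roots on the minus strand. The strands were less even on single chromosomes: chromosome 5 had 30 plus-strand and 14 minus-strand loci, chromosome 7 had 20 and 10, and chromosome 2 had 15 and 26.

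Chromosomes differed modestly in their share. The number ranged from 20 on chromosome 9 to 55 on chromosome 1, which also has the most listed loci. As a share of the loci at 100 FPKM or more in shoots and above 0 in roots, it ranged from 12.7% on chromosome 6 and 13.1% on chromosome 9 to 19.6% on chromosome 2 and 20.8% on chromosome 3. Median shoot level was lowest on chromosome 4, with 195 FPKM, and highest on chromosome 6, with 399 FPKM. The median ratio ran from 84.2 on chromosome 1 to 374 on chromosome 8.

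**Figure D3:**
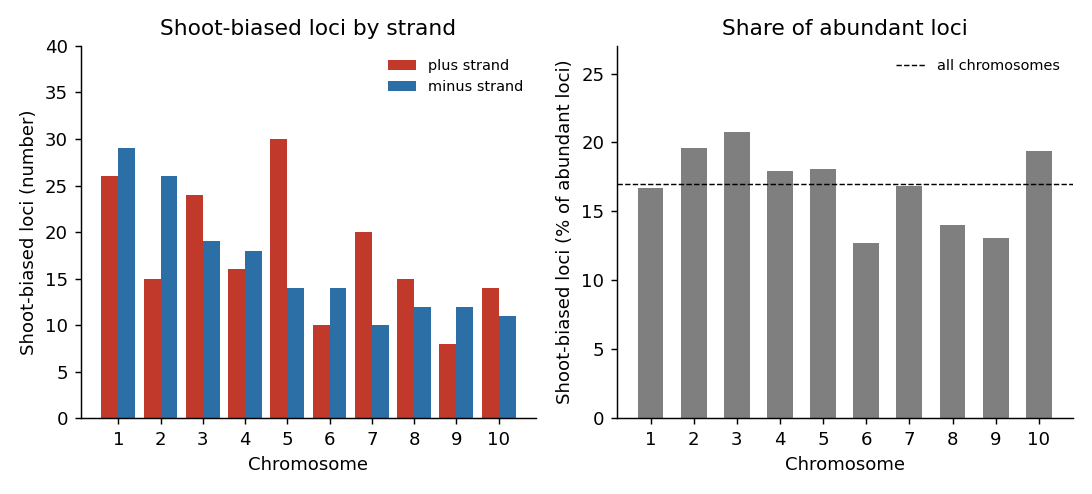
Left, number of abundant shoot-biased loci on the plus and minus strand of each chromosome. Right, the same loci as a percentage of the loci at 100 FPKM or more in shoots and above 0 in roots on that chromosome, with the genome-wide 17.0% dashed. Chromosome 3 has the highest share, 20.8%, and chromosome 6 the lowest, 12.7%.

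In their share near chromosome ends and in the number of listed loci around them, the loci resembled other abundant loci. Within 5 Mb of the first or last listed position of a chromosome lay 41 of them (12.0%), against 11.1% of the other abundant loci and 9.70% of all listed loci. A median of 22 other listed loci lay within 0.5 Mb of them, counting both sides, the same median as for the other abundant loci and for all listed loci. Of 333 steps between successive shoot-biased loci, 25 were within 100 kb, against 227 of 1668 among the other abundant loci. Such counts grow with the size of a set, so they do not compare how clustered the sets are. Of 418 windows of 5 Mb that held a listed locus, 207 held none of the 343, 123 held 1, 57 held 2, 21 held 3, 7 held 4 and 3 held 5. The 3 windows with 5 lay on chromosome 3 from 220 to 225 Mb and on chromosome 5 from 175 to 180 Mb and from 205 to 210 Mb.

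Few side-by-side copies of similar span were found among them. Here similar span means that the shorter locus of a pair reached at least 90% of the longer, with no overlap and a gap of at most 100 kb on either strand. By this definition 4 pairs were found, made of 8 loci (2.33%). The other abundant loci formed 45 such pairs from 85 loci (5.07%), and the 85 abundant root-biased loci formed 3 from 6 loci (7.06%). These shares depend on how densely a set lies, so they do not rank the sets. Successive loci lay a median of 3315 kb apart among the shoot-biased loci. The median was 640 kb among the other abundant loci and 11177 kb among the root-biased loci. Of the pairs within 100 kb of each other at any span, 4 of 27 (14.8%) were of similar span among the shoot-biased loci, 45 of 246 (18.3%) among the other abundant loci and 3 of 8 (37.5%) among the root-biased loci. The similarity is one of span alone. No sequence of the build used was at hand, so whether the loci are copies, and whether reads were divided between them, was not tested.

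In 2 of the 4 pairs the levels of the partners were nearly the same in both organs, and these pairs lie on opposite strands. On chromosome 1, the minus-strand locus between 247727655 and 247729365 and the plus-strand locus between 247758733 and 247760445 face away from each other across 29.4 kb. They spanned 1711 and 1713 bp and stood at 13271 and 12525 FPKM in shoots and at 11.8 and 11.9 FPKM in roots. On chromosome 2, a plus-strand locus between 102352415 and 102354157 and a minus-strand locus between 102398436 and 102400178 point towards each other across 44.3 kb. Both spanned exactly 1743 bp. They stood at 694 and 727 FPKM in shoots and at 0.718 and 0.689 FPKM in roots. No other listed locus lay between the partners of either pair, and within each pair the shoot levels differed by a factor of 1.06 or less.

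The other 2 pairs lie on the same strand and were less alike in level. On the minus strand of chromosome 6, loci between 1340171 and 1341142 and between 1373159 and 1374087 spanned 972 and 929 bp. They stood at 1620 and 747 FPKM in shoots and at 0.837 and 0.540 FPKM in roots. On the minus strand of chromosome 10, loci between 4165442 and 4166593 and between 4243325 and 4244555 spanned 1152 and 1231 bp. They stood at 1053 and 643 FPKM in shoots but at 0.628 and 37.8 FPKM in roots. The chromosome 10 partners thus had ratios of 1678 and 17.0, although their shoot levels differed by a factor of 1.64.

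Without the condition on span, 20 groups of neighbouring shoot-biased loci were found, in which successive loci lay at most 100 kb apart. They comprised 17 pairs, 2 groups of 3 and 1 group of 5, and the remaining 298 loci stood alone. In 12 of the 20 groups all the loci were on 1 strand. Counted by pairs within 100 kb, 20 of 27 (74.1%) were on the same strand, and 14 of 21 (66.7%) without the group of 5. The other abundant loci had 121 of 246 pairs (49.2%) on the same strand. The groups described next were singled out after their values were seen.

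The group of 5 on the plus strand of chromosome 3 held loci of 1388, 1028, 780, 1171 and 234 bp, none within 90% of another in span. Their shoot levels were 2575, 2966, 2306, 3604 and 366 FPKM in order of position, and their root levels 1.26, 2.22, 1.61, 3.30 and 0.0662 FPKM. The first 4 thus differed less than 2-fold in shoots over 177 kb of sequence. A listed plus-strand locus inside this stretch, between 223370704 and 223375836, did not meet the rule. It stood at 3.62 FPKM in shoots and 4.22 in roots. The last of the 5 begins 246 bp after the end of the fourth on the same strand, and whether it is a part of the same transcript was not tested. The group of 3 on the minus strand of chromosome 6 included a locus between 1343660 and 1344909, between the similar-span pair, with 437 FPKM in shoots against 0.914 FPKM in roots. All 3 of that group were under 1 FPKM in roots. The group of 3 on the minus strand of chromosome 10 began with a locus between 4071331 and 4073937 at 171 FPKM in shoots against 7.48 FPKM in roots. A listed locus inside this group that did not meet the rule, between 4157303 and 4162197, stood at 14.9 FPKM in shoots and 13.9 in roots.

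**Figure D4:**
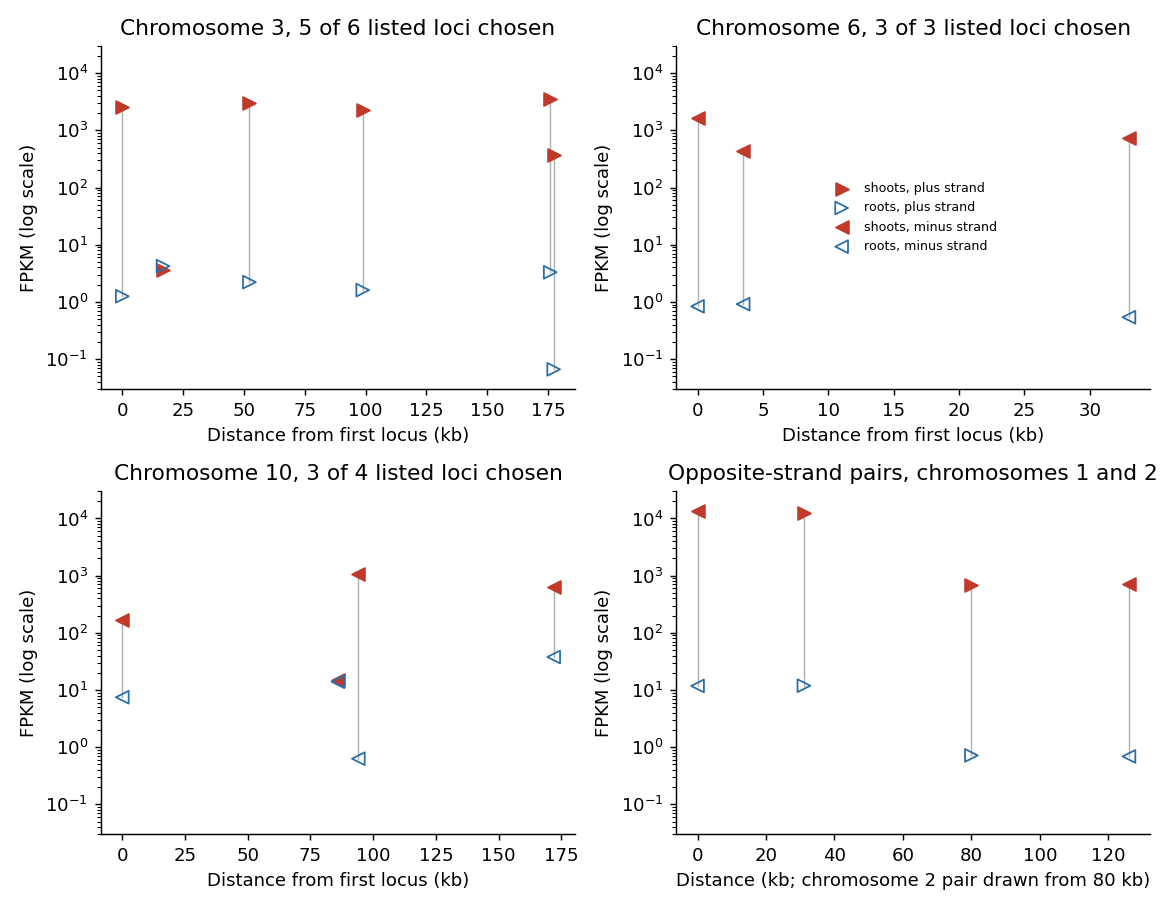
Levels in shoots (filled red) and roots (open blue), in FPKM on a log scale, against distance in kb from the first locus, for the groups of 3 or more shoot-biased loci and for the opposite-strand pairs of similar span. Triangles point in the direction of transcription. Listed loci inside the groups that did not meet the rule are drawn with the same symbols. The chromosome 2 pair is shifted to the right of the chromosome 1 pair in their shared panel. Each grey line joins both levels of a locus, and the last locus of the chromosome 10 group is the highest in roots, at 37.8 FPKM.

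Pairs of unequal span also joined very different levels. On the plus strand of chromosome 1, the 45000 bp locus at 115 FPKM in shoots ended 8.17 kb before a 1098 bp locus at 3077 FPKM in shoots against 18.5 FPKM in roots. Further along chromosome 10 than the group of 3, a plus-strand locus between 147890562 and 147891878 stood at 2044 FPKM in shoots against 2.88 FPKM in roots. A second locus 62.9 kb beyond it, between 147954762 and 147960936, stood at 293 FPKM in shoots and 0.944 in roots. Over all 27 pairs the median fold difference between the shoot levels of the partners was 2.17.

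A neighbour of similar span was usually not shoot-biased. Among all listed loci, 90 of the 343 (26.2%) had at least 1 neighbour of similar span within 100 kb, against 28.7% of the other abundant loci and 24.5% of all listed loci. Leaving out the pairs already given, 98 neighbours of similar span outside the 343 remained. Of these, 13 (13.3%) were at least 4-fold higher in shoots, with 1 FPKM added to both levels, 3 were at least 4-fold higher in roots, and 7 reached 100 FPKM in shoots. Over all listed loci, which include the 343, the shares at least 4-fold higher were 7.55% in shoots and 3.95% in roots. Of the 37398, 2021 reached 100 FPKM in shoots and were above 0 in roots. Some of the 13 met the ratio criterion but missed the shoot level. A plus-strand locus of chromosome 3 between 136578437 and 136582018 stood at 92.0 FPKM in shoots against 0.150 FPKM in roots. On chromosome 5, a plus-strand locus between 178924800 and 178925602 stood at 64.3 FPKM in shoots and 0.122 in roots.

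The closest in span of those 7 abundant neighbours was near equal in both organs. On the plus strand of chromosome 5, the shoot-biased locus between 24215306 and 24218389, of 3084 bp, stood at 198 FPKM in shoots against 1.73 FPKM in roots. Its neighbour of 3079 bp, between 24155065 and 24158143, stood at 104 FPKM in shoots against 118 FPKM in roots. On the minus strand of chromosome 8, a locus between 161077835 and 161080283 stood at 366 FPKM in shoots and 20.8 in roots, and its neighbour between 161067687 and 161070239 at 290 FPKM in shoots and 348 in roots. On chromosome 1, plus strand, a locus between 67077443 and 67079260 stood at 367 FPKM in shoots and 15.1 in roots, and its neighbour between 67128996 and 67130903 at 478 FPKM in shoots and 926 in roots. These were the 3 of the 7 pairs whose partners lay within 2-fold of each other in shoots. Over all 7, the neighbour was the higher in roots, by 12.1 to 111 times. The neighbours met the shoot level of the rule but failed its ratio criterion, while the rule holds the chosen loci low in roots. Where the neighbour was also the higher in shoots, as in 4 of the 7, it had to be the higher in roots. The direction therefore follows at least in part from the choice of loci, and these values are a description.

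The 4 pairs not described above differed more than 2-fold in shoots. On the plus strand of chromosome 2, a locus between 204174723 and 204176131 had 1280 FPKM in shoots, and its neighbour had 334 FPKM. On chromosome 7 the levels in shoots were 147 FPKM and 427 FPKM for the neighbour, and on chromosome 9 they were 115 FPKM and 253 FPKM. Of the 7 neighbours, 1 was itself at least 4-fold higher in shoots. It lies on the plus strand of chromosome 4 between 3256234 and 3258478 and stood at 472 FPKM in shoots against 65.2 FPKM in roots. The shoot-biased locus 2.21 kb further on, between 3260685 and 3262840, stood at 214 FPKM in shoots and 5.38 in roots. Less abundant neighbours of similar span near this locus were also at least 4-fold higher in shoots. A minus-strand one between 3266133 and 3268168 stood at 13.4 FPKM in shoots and 0.0702 in roots. A plus-strand one between 3290752 and 3292922 stood at 21.8 FPKM in shoots and 3.39 in roots. The shoot-biased neighbours counted above are therefore not all neighbours of different loci.

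Overlap with a listed locus of the opposite strand occurred in 43 of the 343 loci (12.5%). The share was 7.99% of the other abundant loci and 9.56% of all listed loci. The 43 loci had 50 such partners, 2 of which were shoot-biased loci of the same set, with a median overlap of 339 bp. In shoots a partner stood at a median of 2.82% of the level of the shoot-biased locus, and in 13 of the 50 pairs it was under 1%. In roots the median was 85.4%, and in 23 pairs the partner was the higher of the pair there. The rule holds the shoot-biased locus high in shoots and low in roots. The contrast between these percentages therefore follows in part from the choice of loci. The part of reads assigned to the wrong strand was not tested.

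Among the antisense partners, shoot bias was found in a minority. At least 4-fold differences with 1 FPKM added were found for 8 of the 50 partners (16%) in favour of shoots, among them the 2 of the set, and for 0 in favour of roots, against 7.55% and 3.95% of all listed loci. Their log2 ratios of roots over shoots had a median of 0.062. The partner highest in roots lies on the minus strand of chromosome 1 between 54602421 and 54605364, and it stood at 173 FPKM in shoots against 315 FPKM in roots. The plus-strand locus it overlaps by 1559 bp, between 54598727 and 54603979, stood at 463 FPKM in shoots and 11.5 in roots. On chromosome 5 a plus-strand partner between 76938312 and 76941962 stood at 39.3 FPKM in shoots and 70.6 in roots, against 519 FPKM in shoots and 20.7 in roots for the minus-strand locus. On chromosome 8 a minus-strand partner between 148514900 and 148519447 stood at 50.8 FPKM in shoots and 51.4 in roots, against 149 FPKM in shoots and 0.374 in roots for the plus-strand locus.

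A single overlap joined 2 of the shoot-biased loci, and it was singled out after its values were seen. On chromosome 7 a plus-strand locus between 5129273 and 5130176 stood at 2503 FPKM in shoots against 3.83 FPKM in roots. The minus-strand locus between 5127881 and 5130109, which covers 837 bp of it, stood at 148 FPKM in shoots and 0.759 in roots. The minus-strand level was thus 5.91% of the plus-strand level in shoots and 19.8% in roots.

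Other loci close to the shoot-biased loci were more often shoot-biased than the list as a whole. Within 10 kb and without overlap lay 288 other listed loci. Of these, 38 (13.2%) were at least 4-fold higher in shoots with 1 FPKM added, against 7.55% of all listed loci, and 7 (2.43%) were at least 4-fold higher in roots, against 3.95%. Near the other abundant loci, 102 of 1486 loci (6.86%) were shoot-biased. Near the 85 abundant root-biased loci, 6 of 56 loci (10.7%) were shoot-biased and 8 (14.3%) root-biased. On the log2 scale, roots over shoots, the 288 neighbours had a median of -0.05, so the typical neighbour was near equal in both organs.

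The share was highest for the nearest neighbours on the same strand. Up to 1 kb away it was 10 of 36 (27.8%) on the same strand and 3 of 29 (10.3%) on the opposite strand. From 1 to 5 kb it was 11.8% of 76 and 7.81% of 64, and from 5 to 10 kb 13.3% of 45 and 13.2% of 38. Beyond 20 kb it lay between 5.08% and 8.31% on either strand. Same-strand neighbours within 1 kb may be unjoined pieces of the same transcript, which was not tested, and without them the share within 10 kb was 11.1% of 252. The neighbours had a median shoot level of 12.6 FPKM, above the 8.91 FPKM of all listed loci. Restricted to loci that reached 5 FPKM in either organ, the shares were 15.0% near the shoot-biased loci and 9.89% of all listed loci.

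**Figure D5:**
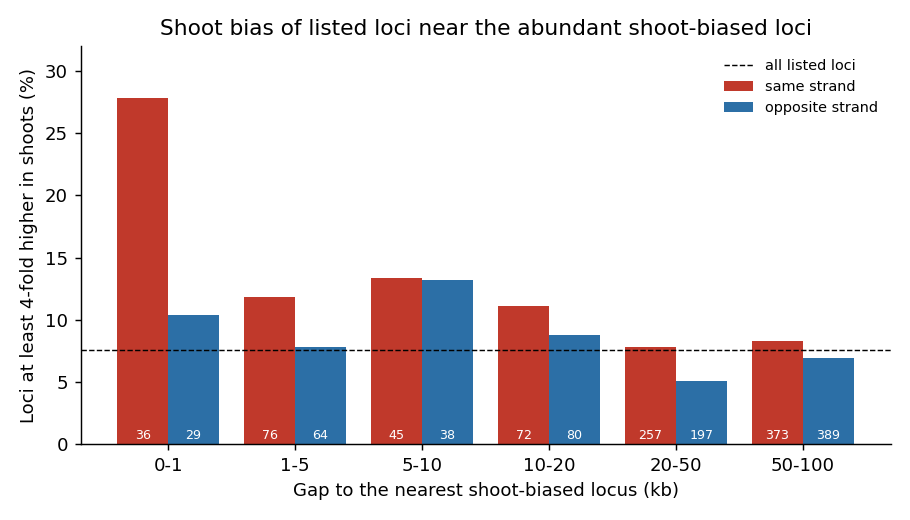
Share of listed loci that were at least 4-fold higher in shoots (y axis, percent), by gap to the nearest abundant shoot-biased locus (x axis, kb) and by strand, with the number of loci written in each bar. The same-strand bar up to 1 kb reaches 27.8% of 36 loci, and the bars beyond 20 kb lie near the dashed 7.55% of all listed loci.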

How the data were processed

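The authors deposited 1 table of FPKM values with a column per tissue. The submitters' processing notes name TopHat, Cufflinks and Cuffdiff. Versions and settings are not given in the sources here. Loci have positions on B73 RefGen_v2, per the file header, and every listed locus exceeds 1.00 FPKM in a library. None of the 37398 identifiers matched the 49888 genes of the RefSeq table for assembly Zm-B73-REFERENCE-NAM-5.0, whose coordinates were not used. Groups follow the tissue labels.

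From the deposited values, the rule, spans (end minus start plus 1), gaps, overlaps and log2((roots + 1)/(shoots + 1)) were computed with Python 3.11.15, pandas 2.3.3, NumPy 2.4.6 and SciPy 1.17.1. Scripts were tested on simulated data. Loci were named by position: the 10 highest in shoots, the 5 largest ratios, the 3 highest in roots, the 3 longest and shortest, those next to each threshold, the side-by-side groups and pairs, and the 3 opposite-strand partners highest in roots. The loci and definitions were chosen with earlier results of these data known. Alternatives covered the thresholds, pseudocount, scaling, joining of loci, gap, span likeness and overlap. The depth is unknown, so no counting interval is given. No sequence was printed, since no genome of this build was used here.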

Additional observations from a re-analysis of the deposited data

How the results depend on the processing

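Of 38 values under other settings, 27 stayed close to those reported and 11 moved. Close means within 1.5 times for counts, and within the 95% interval of the main value for medians and percentages, an interval that takes loci as independent. The number of loci meeting the rule moved to 519 at 50 FPKM or more in shoots and to 213 at 200 FPKM or more. Other ratios, pseudocounts, scalings and joined loci gave 280 to 423, and 238 of the 343 also reached 1 FPKM in roots. The 3 loci at 0 in roots would make it 346. The median span moved to 1860 bp at 200 FPKM or more, and to 2599.5 bp for loci at 100 to 200 FPKM, a division added after seeing the data. The 4 side-by-side pairs became 0 at gaps up to 20 kb, 7 with the shorter span at least 80% of the longer, 2 on the same strand only and, added after seeing the data, 27 at any span. The share of shoot-biased neighbours was 8.51% within 100 kb, 20.5% with a pseudocount of 0.1 FPKM and 6.60% with 5 FPKM. Over all listed loci these pseudocounts gave 12.7% and 3.60%, so the neighbours had the larger share in each setting run. The counts of loci and pairs move by construction with their thresholds, and for the median span and the share of neighbours the cause was not tested. No paired analysis was possible because there is a single library of each organ, which also means that none could be omitted. With the depth unknown, root levels near 0 carry no stated precision.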
